A study of Rattus norvegicus with 4 samples.

Results

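The genes described here were 57 members of the Wnt signalling pathway among the 30708 genes listed for S16 cells, an immortalized rat Schwann cell line. They were chosen by symbol and not by their values, and comprise the Wnt ligands, the Frizzled (Fzd) receptors, the secreted Frizzled-related proteins (Sfrp), the Dickkopf (Dkk) antagonists, the R-spondins (Rspo), Axin1 and Axin2, and 14 further genes for ligand secretion, co-receptors, R-spondin receptors, receptor turnover and nuclear transcription. Poly(A) RNA of unmodified S16 cells grown in standard medium was sequenced at passage 9 and at passage 39, with 1 population per passage and 2 libraries per population that the labels call technical replicates. The populations are called P9 and P39 below, and library 1 and library 2 of each are named after the technical replicate number in the labels. The passage 9 population was the parent of the enhancer-deletion lines of the same study, which were not analysed here, and no treatment distinguished the groups. Level is given in RPKM (reads divided by gene length in kilobases and by the library total in units of 1000000), a scale on which levels of different genes can be compared. A mean is the average of both populations and its SD is taken over the 2 populations.

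The read totals behind the RPKM values, recovered from the values themselves, were between 34.2 and 41.4 M per library (M, 1000000). The 95% intervals given with ratios and levels are of the exact Clopper-Pearson kind, for the counting of reads alone. The libraries did not group by their passage label: of the 11025 genes averaging 1 RPKM or more, the 95% intervals were separate for 61.4% and 59.9% between the 2 libraries of P9 and of P39, and for 0.952% and 2.01% between the passages in libraries 1 and libraries 2. The labels do not say what the replicate number stands for, and a difference between replicates cannot be told apart here from crossed labels. The paper's methods state that technical replicates were pooled and sequenced over 2 lanes, without tying the number to a lane. The read number they give per cell line is below the totals recovered here for single libraries, and this discrepancy was not resolved. Every difference by passage or by number below is therefore one between libraries as labelled. Of 9 Schwann cell markers, 8 had a mean of at least 1 RPKM, among them Sox10 and Erbb3, and the summed level of the 9 was 2059 and 2045 RPKM in library 1 of P9 and P39 and 1970.0 and 1948.5 RPKM in library 2. Of the fibroblast markers, 3 of 6 reached 1 RPKM, with sums of 3432 and 3446 RPKM in libraries 1 and 3934 and 3826 RPKM in libraries 2. Almost all of this sum was the collagen gene Col1a1, with a mean of 3588 RPKM, while Dcn and Lum were below 0.1 RPKM on average. In the neuron list 1 of 6 markers, Tubb3, reached 1 RPKM, and Syt1 and Stmn2 were listed at 0. The neuron sums were 49.8 and 49.6 RPKM in libraries 1 and 62.1 and 63.5 RPKM in libraries 2. In the melanocyte list 1 of 5 markers, Pmel, reached 1 RPKM, with sums between 8.35 and 9.30 RPKM and Tyr listed at 0. None of 4 endothelial markers reached 1 RPKM (sums between 0.307 and 0.418 RPKM, Cdh5 and Kdr listed at 0). The macrophage list was represented by Cd68 alone among 5 markers, with sums between 1.48 and 1.62 RPKM and Ptprc and Itgam listed at 0. These are bulk samples, in which fewer expressing cells and less RNA per cell cannot be told apart.

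Wnt proteins are secreted glycoproteins that receive a lipid from the acyltransferase Porcn and are carried to the cell surface by Wls. In the canonical branch a Wnt joins a Frizzled receptor to the co-receptor Lrp5 or Lrp6, which stops the Axin-based destruction complex from degrading beta-catenin (Ctnnb1), and beta-catenin then acts on target genes with transcription factors of the TCF/LEF family. R-spondins raise the response by withdrawing the ubiquitin ligases Znrf3 and Rnf43, which clear Frizzled from the membrane, through the receptors Lgr4, Lgr5 and Lgr6. In peripheral nerve the pathway is known for roles in the sorting of axons and the onset of myelination.

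S16 cells showed a marked contrast between abundant reception and secretion machinery and sparse ligands. Of the 57 members, 23 had a mean of at least 1 RPKM, 13 lay between 0.1 and 1 RPKM, 14 were above 0 but under 0.1 RPKM, and 7 were listed at 0 in every library. The share at 1 RPKM or more was 40.4%, beside 35.9% of all 30708 genes. The 23 genes were also at 1 RPKM or more in each population separately. The highest members were Ctnnb1 with 133 ± 1.06 RPKM (SD, n = 2 populations) and Sfrp1 with 133 ± 0.429 RPKM, whose means differed by less than these SDs. They were followed by Fzd2 with 107 ± 3.48, Wls with 88.5 ± 0.250 and Lgr4 with 76.3 ± 1.44 RPKM, each separated from the next by more than these SDs. The SDs leave out the difference between libraries 1 and 2, and this order held for the means and not in every library. Sfrp1, at 165 RPKM in both libraries 1, was above Ctnnb1 at 144 and 145 RPKM there. In libraries 2 of P9 and P39, Sfrp1 at 100.5 and 101.6 RPKM was below Ctnnb1 at 121 and 123 RPKM. It was also below Fzd2 there, at 116 and 109 RPKM. The mean of every other member was at or below 21.6 RPKM.

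**Figure D1:**
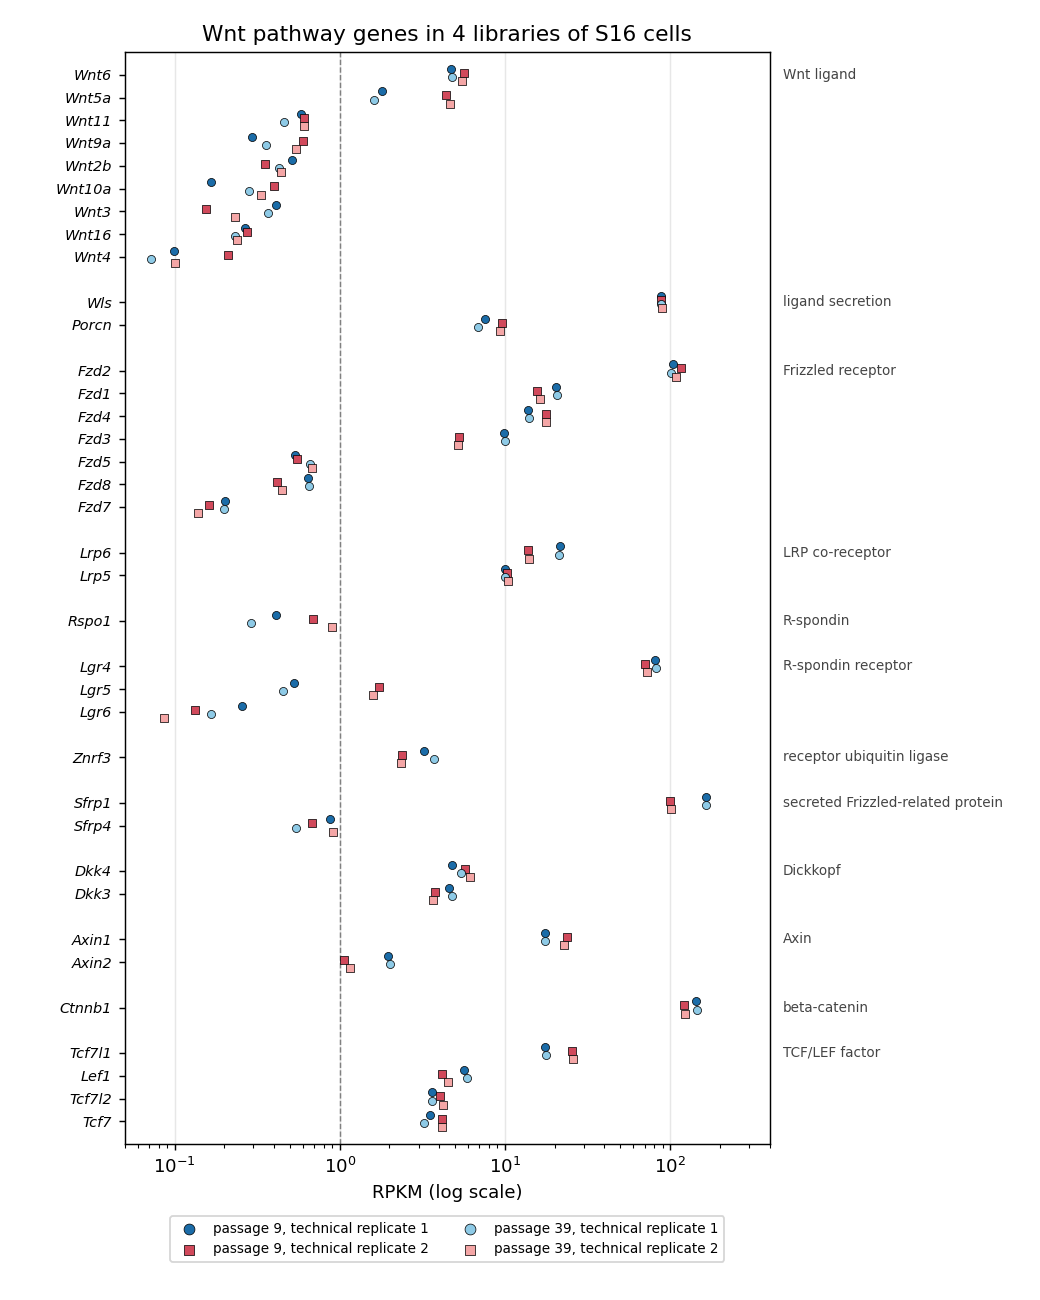
RPKM (log scale) of the 36 members with a mean of at least 0.1 RPKM, grouped by role, with 1 symbol per library set slightly apart in height; circles are libraries 1, squares libraries 2, and the dashed line marks 1 RPKM. Ctnnb1, Sfrp1, Fzd2, Wls and Lgr4 lie far to the right of the Wnt ligands, and for most genes the circles and squares separate more than the dark and light symbols.

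Of 19 Wnt genes only Wnt6 and Wnt5a had a mean of at least 1 RPKM. Wnt6 was at 4.72 and 5.65 RPKM in libraries 1 and 2 of P9 and at 4.78 and 5.47 RPKM in those of P39. Wnt5a, a ligand best known for signalling that does not pass through beta-catenin, was at 1.80 and 4.40 RPKM at P9 and at 1.61 and 4.67 RPKM at P39. Its libraries 2 were thus high and its libraries 1 low in both passages, with no overlap. The summed RPKM of the 19 ligands was 8.95 and 13.0 at P9 and 8.70 and 12.8 at P39, and Wnt6 made up 47.5% of the mean sum.

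The other ligands were sparse. Wnt11, Wnt9a, Wnt2b, Wnt10a, Wnt3, Wnt16 and Wnt4 had means between 0.121 and 0.561 RPKM, and Wnt10b, Wnt7a, Wnt1, Wnt5b, Wnt7b, Wnt3a and Wnt2 had means between 0.00350 and 0.0774 RPKM. Wnt8a, Wnt8b and Wnt9b were listed at 0 in all 4 libraries, as was 1 of 73 ribosomal protein genes, so a value of 0 is read here only as a listing. Wnt1, a ligand of the early neural tube, was listed at 0 in both libraries 1, where 3 reads would be worth 0.0344 and 0.0416 RPKM, and rested on 5 reads and 1 read in libraries 2. Of the 7 ligands averaging 0.1 to 1 RPKM, libraries 1 and 2 did not overlap for 5, while 62.9% of all genes in this range did not overlap. Wnt16 and Wnt2b overlapped. The interval of the ratio of library 2 to library 1 excluded 1 in both passages for Wnt9a and Wnt3 and held 1 in both for Wnt11, Wnt16, Wnt2b and Wnt4. Wnt9a had 41 and 71 reads at P9 and 41 and 75 reads at P39, or 0.294, 0.601, 0.355 and 0.542 RPKM in that order. Wnt3, a canonical ligand, went the other way with 66, 21, 49 and 37 reads, or 0.411, 0.154, 0.369 and 0.232 RPKM. Libraries 2 were thus above libraries 1 for Wnt9a and below them for Wnt3 in both passages.

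Wls, which every lipidated Wnt needs to leave the cell, was nearly level, with 88.6 and 88.1 RPKM at P9 and 88.1 and 89.3 RPKM at P39, in the order of library number. Its 95% intervals overlapped in all 4 pairs of libraries compared. Porcn, with a mean of 8.35 RPKM, was at 7.53 and 9.55 RPKM at P9 and 6.91 and 9.40 RPKM at P39. Both libraries 2 of Porcn were above both libraries 1.

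Fzd2 was the dominant Frizzled receptor and made up 71.5% of the mean summed RPKM of the 10 Frizzled genes. It was at 104 and 116 RPKM at P9 and at 101 and 109 RPKM at P39. The sum over the family was nearly level, at 149 and 155 RPKM at P9 and 147 and 149 RPKM at P39. Within the family, however, members differed in opposite directions between libraries 1 and 2. Fzd1 was at 20.2 and 15.6 RPKM at P9 and at 20.6 and 16.3 RPKM at P39. Fzd4, the receptor of norrin as well as of Wnts, was at 13.8 and 17.6 RPKM at P9 and at 14.0 and 17.6 RPKM at P39. Fzd3, known for its part in axon guidance and planar cell polarity, was at 9.89 and 5.31 RPKM at P9 and at 9.99 and 5.19 RPKM at P39. Fzd1 and Fzd3 were thus low and Fzd4 high in libraries 2, without overlap. Fzd5, Fzd8 and Fzd7 had means between 0.175 and 0.607 RPKM, Fzd6 and Fzd9 rested on at most 2 reads in any library, and Fzd10 was listed at 0.

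The co-receptors were unequal in this respect. Lrp6 was at 21.6 and 13.9 RPKM at P9 and at 21.3 and 13.9 RPKM at P39. Lrp5 was at 9.95 and 10.3 RPKM at P9 and at 10.1 and 10.4 RPKM at P39, so that the intervals of its technical replicates overlapped. Lrp6 therefore stood 2.17-fold above Lrp5 in library 1 and 1.34-fold above it in library 2 of P9, and 2.12-fold and 1.34-fold above it at P39.

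On the R-spondin side, Lgr4 carried 98.4% of the summed RPKM of the 3 receptor genes. It was at 80.5 and 70.0 RPKM at P9 and at 82.4 and 72.2 RPKM at P39, lower in libraries 2. Lgr5, best known as a stem cell marker and Wnt target, was low in libraries 1 with 0.532 and 0.452 RPKM (98 and 69 reads) and high in libraries 2 with 1.73 and 1.58 RPKM (270 and 289 reads). Its ratio of library 2 to library 1 was 3.25 at P9 (95% interval 2.57 to 4.14) and 3.49 at P39 (95% interval 2.68 to 4.61), the highest of the 23 members at 1 RPKM or more. With a mean of 1.07 RPKM, Lgr5 passed this minimum only through libraries 2. Its place among the 23 members thus rests partly on the values compared. Lgr6 was at 0.254 and 0.132 RPKM at P9 and 0.167 and 0.0867 RPKM at P39. Among the R-spondins themselves only Rspo1 exceeded 0.1 RPKM, with 29 and 41 reads at P9 and 17 and 63 reads at P39, or 0.411, 0.685, 0.291 and 0.899 RPKM. Like Lgr5, Rspo1 was higher in libraries 2. Rspo3 had 1 read in 1 library, and Rspo2 and Rspo4 were listed at 0. The ubiquitin ligase Znrf3 was at 3.25 and 2.37 RPKM at P9 and 3.70 and 2.34 RPKM at P39, whereas its relative Rnf43 had a mean of 0.0608 RPKM.

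The secreted antagonists were represented mainly by Sfrp1, which binds Wnts outside the cell and made up 99.4% of the summed RPKM of the 4 Sfrp genes. Sfrp1 was at 164.8 and 100.5 RPKM at P9 and at 164.9 and 101.6 RPKM at P39. The ratio of library 2 to library 1 was 0.610 (95% interval 0.597 to 0.622) and 0.616 (95% interval 0.603 to 0.628). Sfrp1 thus differed little between passages and widely between technical replicates. Sfrp4 had a mean of 0.750 RPKM. Sfrp2 rested on 1 read and no read in libraries 1 of P9 and P39 and on 9 and 17 reads in libraries 2, and Sfrp5 on 1 read in each of 2 libraries. Of the Dickkopf genes, Dkk4, which blocks Lrp5 and Lrp6, was at 4.80 and 5.75 RPKM at P9 and 5.39 and 6.11 RPKM at P39. Dkk3, a divergent family member, was at 4.61 and 3.80 RPKM at P9 and 4.80 and 3.65 RPKM at P39. Dkk2 had 1 read in 1 library and Dkk1 was listed at 0.

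Inside the cell, Ctnnb1 was at 144 and 121 RPKM at P9 and at 145 and 123 RPKM at P39. Axin1, the constant scaffold of the destruction complex, was at 17.6 and 23.8 RPKM at P9 and 17.5 and 22.9 RPKM at P39. Axin2, the related scaffold that is itself a widely used canonical target, was at 1.96 and 1.07 RPKM at P9 (253 and 117 reads) and 2.02 and 1.15 RPKM at P39 (216 and 148 reads). The paralogs thus differed in opposite directions, Axin1 high and Axin2 low in libraries 2. All 4 TCF/LEF genes were above 1 RPKM. Tcf7l1, known largely as a repressor, made up 63.0% of their mean sum and was at 17.4 and 25.5 RPKM at P9 and 17.8 and 25.7 RPKM at P39. Lef1, known largely as an activator, was at 5.62 and 4.18 RPKM at P9 and 5.85 and 4.55 RPKM at P39. Tcf7 was at 3.52 and 4.15 RPKM at P9 and 3.23 and 4.18 RPKM at P39, and Tcf7l2 lay between 3.61 and 4.19 RPKM. Lef1 alone in this family was lower in libraries 2.

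Promoter windows were sought for Wnt5a, Lgr5, Axin2 and Lrp6. Wnt5a and Axin2, which had a usable entry, are shown with the 250 bases before their RefSeq start. Promoter entries existed for 40 of the 57 members. The letters CTTTGA, a core of TCF/LEF sites, were searched on both strands and are in capitals, as would be CTTTGT, a core shared by TCF/LEF and SOX factors that has the same leading letters. CTTTGA or its reverse complement occurred in 13.9% of 33469 rat promoter windows of this length and in 4 of the 40 member windows (Axin2, Dkk1, Fzd7 and Wnt8a), and CTTTGT or its reverse complement in 16.3% of all windows and in 4 member windows. The Axin2 window held CTTTGA at 2 places, the Wnt5a window neither motif. These are matches of letters in the GRCr8 assembly, and binding was not measured. A link between the motifs and the differences between technical replicates was not tested.
Axin2, GRCr8 chr10:94398535-94398784, plus strand: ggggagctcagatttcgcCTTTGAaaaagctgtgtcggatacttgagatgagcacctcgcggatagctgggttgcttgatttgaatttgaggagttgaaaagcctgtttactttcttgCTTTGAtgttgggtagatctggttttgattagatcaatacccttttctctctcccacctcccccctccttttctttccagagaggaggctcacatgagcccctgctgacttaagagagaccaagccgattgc
Wnt5a, GRCr8 chr16:3703415-3703664, plus strand: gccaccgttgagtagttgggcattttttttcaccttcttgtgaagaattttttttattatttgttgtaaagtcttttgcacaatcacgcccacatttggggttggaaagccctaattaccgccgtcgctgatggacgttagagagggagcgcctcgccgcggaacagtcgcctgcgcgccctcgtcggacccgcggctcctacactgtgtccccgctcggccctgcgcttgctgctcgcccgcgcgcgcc

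The comparison of P39 with P9 sets a late culture of the line beside an early one, and no member differed by 2-fold. With 1 population per passage the difference has no replicate check and no test was made. On the log2(RPKM + 1) scale, on which changes of low genes are understated, the differences of the 23 members at 1 RPKM or more lay between -0.079 for Lgr5 and 0.10 for Dkk4, with a median of 0.0086. Over all 11025 genes that reached this minimum the median was -0.0021, and 0.00907% of them differed at least 2-fold. None of these 23 members had both libraries of a passage above both of the other, while 6.21% of the 11025 genes did. Members under the minimum were not counted here. For pairs of equal library number, the 95% intervals were separate for 0 of 23 members in libraries 1, where the share over all genes was 0.952%. In libraries 2 they were separate for 1 of 23 members, Fzd2, at 116 RPKM (113 to 118) at P9 and 109 RPKM (106 to 111) at P39, where the share over all genes was 2.01%. The interval of the ratio itself excluded 1 for 0 of the 23 members in libraries 1 (6.26% of all genes). In libraries 2 it did so for 2 of the 23 (8.86% of all genes), Fzd2 below and Lgr4 above, the latter with a ratio of 1.03 (1.002 to 1.06). The ratio of P39 to P9 among the 23 members ranged from 0.851 to 1.14 in libraries 1 and from 0.914 to 1.09 in libraries 2. These comparisons are between libraries and do not test the passages.

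**Figure D2:**
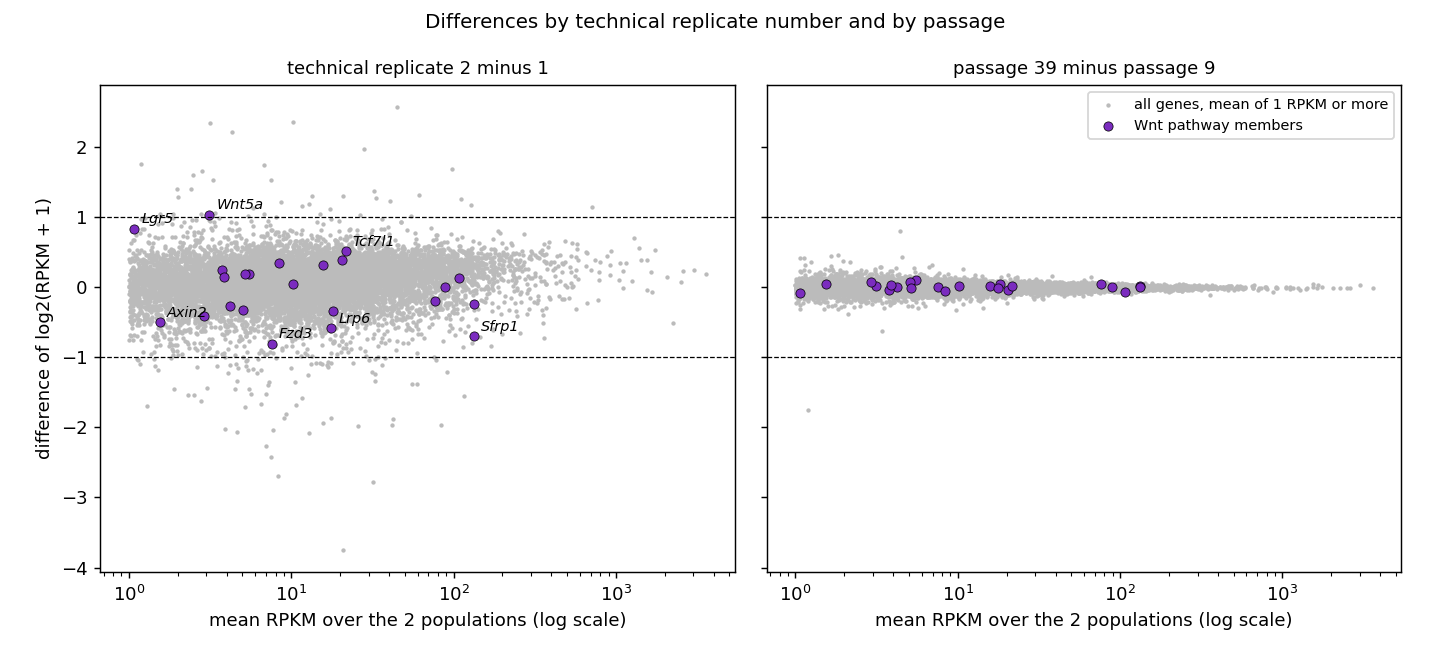
Difference of log2(RPKM + 1) against mean RPKM (log scale) for the 11025 genes averaging 1 RPKM or more (grey) and the 23 members among them (purple), by technical replicate number on the left and by passage on the right; dashed lines mark a 2-fold difference. On the left the members spread from -0.81 for Fzd3 to 1.03 for Wnt5a, and on the right all of them lie between -0.079 and 0.10.

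Libraries 2 and 1 differed more than the passages did, although they are labelled as technical replicates. Of the 23 members, 22 had both libraries 2 above or both below the libraries 1, and the share over all genes was 87.7%. Higher in libraries 2 were 12 members (57.2% of all genes), namely Wnt5a, Lgr5, Tcf7l1, Axin1, Porcn, Fzd4, Tcf7, Wnt6, Dkk4, Tcf7l2, Fzd2 and Lrp5. Of these, Lgr5 passed the minimum only through its values in libraries 2. Lower were 10 members (30.5% of all genes), namely Fzd3, Sfrp1, Lrp6, Axin2, Znrf3, Fzd1, Lef1, Dkk3, Ctnnb1 and Lgr4. Wls alone overlapped. As deposited, the median difference of all genes was 0.10 on the log2(RPKM + 1) scale. After rescaling each library to a sum of 1000000 it was -0.032 over the 12406 genes that then reached the minimum. The deposited values summed to between 315847 and 351061, so the rescaling raised every value. The minimum of 1 RPKM thus let more genes in, and the added 1 RPKM weighed less. After that rescaling 30 members passed the minimum, of which 11 were higher and 14 lower, and all genes split into 4497 higher and 5700 lower in place of 6302 and 3368. The small differences of Fzd2, Lrp5 and Wls changed direction with the scaling. With median-ratio scaling the members split into 10 higher and 12 lower, and all genes into 5046 higher and 4345 lower.

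The median size of the difference by number, sign ignored, was 0.33 for the 23 members and 0.21 for all genes on the log2(RPKM + 1) scale. Only Wnt5a reached 2-fold on the log2(RPKM + 1) scale, at 1.03, which was 1 of 23 members beside 1.09% of all genes, or 0.363% when only genes higher in libraries 2 are counted. This call sat at the threshold and was lost with median-ratio scaling and without either library of P39. Counted in reads, the ratio of library 2 to library 1 of Wnt5a was 2.44 at P9 (300 and 622 reads in libraries 1 and 2, 95% interval 2.13 to 2.82) and 2.89 at P39 (223 and 774 reads, 95% interval 2.49 to 3.37). Lgr5, whose log2 difference was 0.83, had a higher ratio in reads, as given above, because the added 1 RPKM weighs more on a lower gene. At the other end stood Fzd3 with a ratio of 0.537 at P9 (95% interval 0.483 to 0.596) and 0.519 at P39 (0.467 to 0.576), and Axin2 with 0.545 (0.434 to 0.682) and 0.571 (0.460 to 0.707). Lrp6 was at 0.643 (0.617 to 0.670) and 0.654 (0.628 to 0.681). For these 5 genes, named for ratios far from 1, the interval lay wholly on the same side of 1 in both passages. The same held for Sfrp1, given above, and for most of the 23 members.

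**Figure D3:**
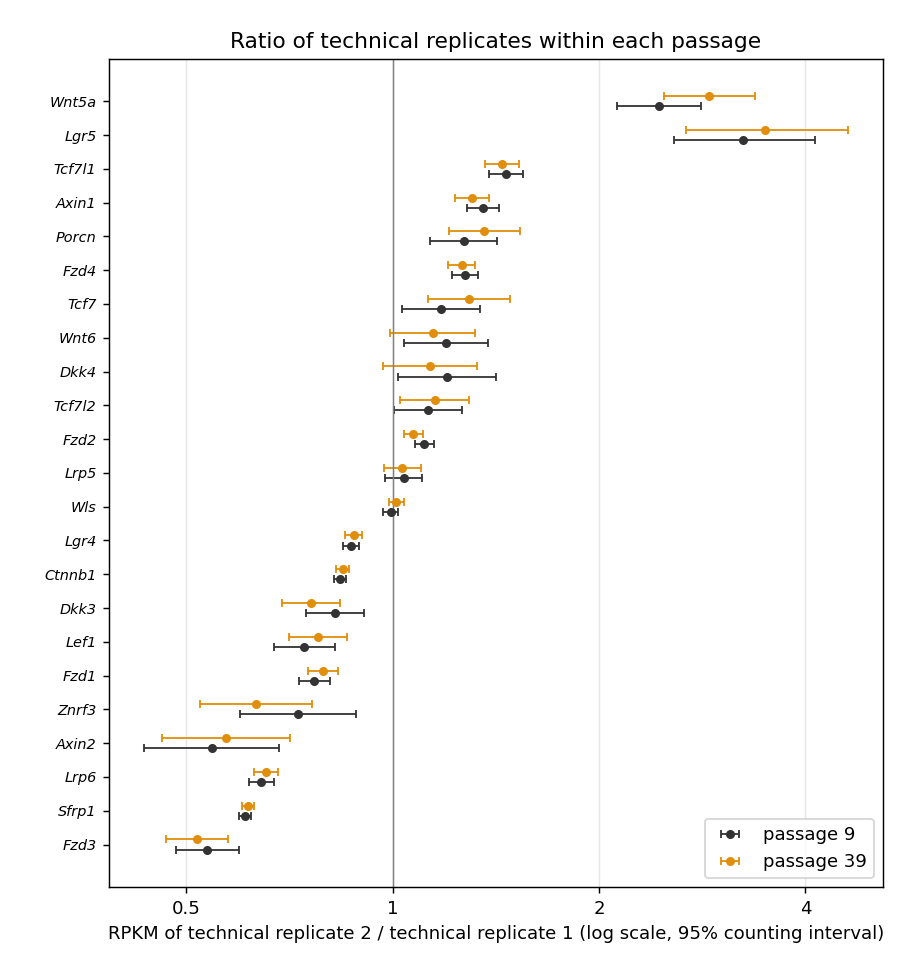
Ratio of the RPKM of library 2 to library 1 (log scale) within P9 (black) and P39 (orange) for the 23 members averaging 1 RPKM or more; bars are exact 95% intervals for counting error. The ratios run from Fzd3 at 0.519 to Lgr5 at 3.49, and the points of the 2 passages lie close together for each gene.

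Over the 23 members, the ratio excluded 1 for 21 at P9 (11 above, 10 below) and for 19 at P39 (9 above, 10 below). Over all genes it did so for 72% at P9 (47.5% above, 24.5% below) and 70.6% at P39 (46.4% above, 24.2% below). The stricter count of separate intervals gave 17 members at P9, beside 61.4% of all genes, and 18 at P39, beside 59.9%. The difference by number was larger than the difference by passage for 22 of 23 members and for 91.2% of all genes. The Schwann cell marker sum was lower and the neuron and fibroblast sums were higher in libraries 2, as given above. The markers within a list did not move together. Of 8 Schwann cell markers at 1 RPKM or more, 6 were lower and 2, Sox10 and Pmp22, higher. Of 3 such fibroblast markers, Col1a1 and Pdgfra were higher and Col3a1 lower, and the neuron sum was almost wholly Tubb3. The RPKM of all genes also summed higher in libraries 2, at 351061 and 348537 beside 315847 and 315995. The part of the markers in the member differences was not tested. Recovered gene length, between 5 and 32211 bp and too short for some genes, moved with the difference over all genes. The Spearman rho was -0.42 across 11025 genes, all measured in the same 4 libraries. Over the 23 members, with recovered lengths between 1491 and 7313 bp, rho was -0.12. Relative to the median of genes close to them in length, Wnt5a was at 1.03, Lgr5 at 0.82, Fzd3 at -0.92, Sfrp1 at -0.71, Axin2 at -0.62 and Lrp6 at -0.49, while Dkk4, Fzd2 and Wls changed direction.

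Of 56 listed pathway genes outside the member list, 44 had a mean of at least 1 RPKM, of which 20 were higher and 20 lower in both libraries 2, with a median log2 difference of 0.011. Notum, counted as higher, passed the minimum only through libraries 2. Over all genes 57.2% were higher and 30.5% lower, with a median of 0.10. The even split depended on the scaling, with 15 higher and 27 lower of 46 genes after rescaling to a sum of 1000000, where all genes split into 4497 and 5700 of 12406. With median-ratio scaling 16 were higher and 25 lower of 44, where all genes split into 5046 and 4345 of 11023. As deposited, none of the 44 differed 2-fold by passage (0.00907% of all genes) and 1 did by number (1.09% of all genes). This was the secreted inhibitor Sostdc1, at 5.02 and 1.81 RPKM at P9 and 5.22 and 1.82 RPKM at P39. Among the Dishevelled and destruction complex genes 7 of 13 were higher and 5 lower in libraries 2, which became 4 and 8 under both other scalings. Gsk3b, a kinase that marks beta-catenin for degradation, was at 22.6 and 15.5 RPKM at P9 and 23.4 and 15.8 RPKM at P39. Apc, a scaffold of the same complex, was at 10.9 and 7.15 RPKM and 11.2 and 7.30 RPKM. Gsk3a and Dvl1 were higher in libraries 2, with log2 differences of 0.25 and 0.32. Among 10 coactivators and corepressors 6 were higher and 3 lower, near the shares over all genes. Among the other receptors and polarity genes 2 of 12 were higher and 8 lower (2 and 10 after rescaling to a sum of 1000000), the latter with Ror1, a receptor of Wnt5a, at 7.99 and 5.10 RPKM at P9 and 8.22 and 5.64 RPKM at P39. Ror2 was at 0.0088 RPKM on average, and the symbol Gpr124 was not matched. Of the inhibitors outside the member list, 5 of 13 reached 1 RPKM, with Nkd2 at 72.2, Kremen1 at 24.2 and Igfbp4 at 8.34 RPKM on average, and Frzb and Sost were listed at 0.

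Of 14 genes often used as readouts of canonical signalling, some of them members, 10 reached 1 RPKM, of which 6 were higher and 4 lower in libraries 2, with a median log2 difference of 0.14. Lgr5 and Notum, both higher, passed the minimum only through libraries 2, so this split rests partly on the values compared. The share that was higher, 60%, was near the 57.2% over all genes, and both other scalings gave 5 higher and 5 lower, with Ccnd1 turning lower. Axin2, Znrf3 and Lef1 were lower, as was Cd44, at 105 and 89.0 RPKM at P9 and 104 and 89.0 RPKM at P39. Lgr5 and Tcf7 were higher. Notum, which removes the lipid of Wnt proteins, was at 0.732 and 2.34 RPKM at P9 and 0.759 and 2.19 RPKM at P39. Myc was at 10.6 and 15.8 RPKM and 10.5 and 16.5 RPKM, and Fosl1 at 12.9 and 19.4 RPKM and 12.9 and 19.0 RPKM, in the same order. Ccnd1 was nearly level, between 80.2 and 84.0 RPKM. The 4 readouts under 1 RPKM were Rnf43, Nkd1, Apcdd1 and Sp5, of which Sp5 was listed at 0. Axin2, Znrf3 and Lef1 on the one side and Lgr5 and Notum on the other thus differed in opposite directions between the same libraries, and none of the 10 differed 2-fold by passage.

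**Figure D4:**
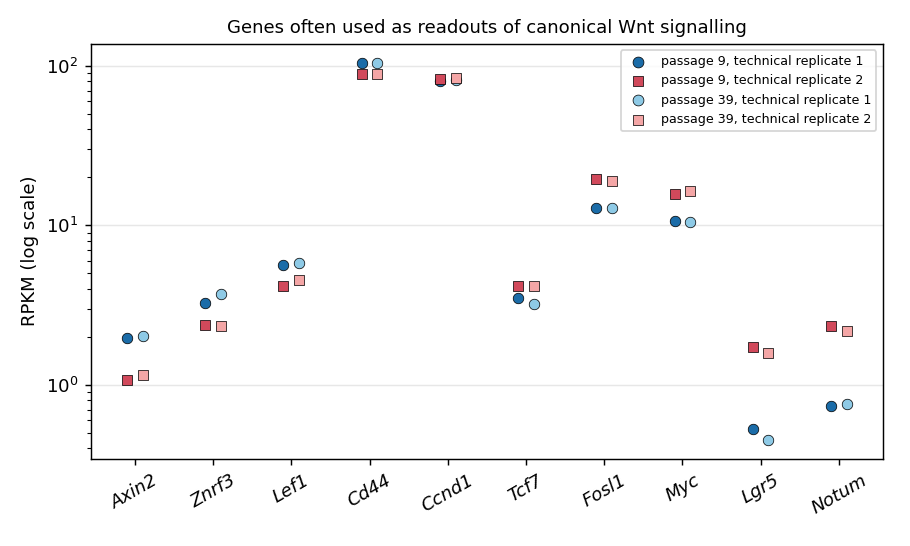
RPKM (log scale) of the 10 readout genes averaging 1 RPKM or more, ordered by their difference between libraries 2 and 1; circles are libraries 1, squares libraries 2, dark symbols P9 and light symbols P39. Squares lie below circles for Axin2, Znrf3, Lef1 and Cd44 and above them for the other 6 genes, from a small gap for Ccnd1, which turns under both other scalings, to a wide one for Lgr5 and Notum.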

How the data were processed

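Poly(A) RNA-Seq of 4 libraries of unmodified S16 cells was analysed. Per the paper's methods and the submitters' processing notes, TruSeq libraries were sequenced as single ends, checked with FastQC, aligned to the rat rn5 genome with STAR keeping uniquely mapped reads, and counted with HTSeq for each gene, strand ignored, so sense and antisense reads cannot be told apart. Tool versions are not given in the sources used here. The authors deposited 1 RPKM value per gene symbol and library; the gene lengths and totals behind them are not stated, and the file names point to RefSeq models where the methods name Ensembl.

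Members were matched by symbol in all 4 files. Totals (34.2 to 41.4 M reads; M, 1000000), gene lengths and reads were recovered from the deposited RPKM values, which are whole reads divided by length and total, within a relative tolerance of 1e-11. The smallest solution in whole numbers was taken, and where a gene's true reads are a multiple of it the intervals are too wide and the recovered length is too short. The relation to gene length and the length correction share this limit. The recovery and the fold count were tested on simulated data. Intervals cover counting error only, as reads were not tied to single molecules. No p-value was computed, since each passage had 1 population. Libraries of a passage were averaged first; a 2-fold difference was counted on log2(RPKM + 1) among genes averaging 1 RPKM or more. All members at 1 RPKM or more, and the pathway and marker genes of fixed lists, could be named. 1 gene of the Schwann cell marker list is not reported here and was left out of the list's counts and sums. Members and lists were chosen with earlier results of these data known. Alternatives were a pseudocount of 0.1 RPKM, other minimums, 2 other scalings, each library left out, the pairing by replicate number and, added after seeing the data, a length correction in 20 bins and other minimums for the interval counts. Promoter windows are from RefSeq, assembly GRCr8. No gene coordinates are given because the gene table was for another build than the files. Python 3.11.15, numpy 2.4.6, scipy 1.17.1 and matplotlib 3.10.9 were used.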

Additional observations from a re-analysis of the deposited data

Results flagged for a closer look

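In 3 members with a mean of at least 0.1 RPKM the technical replicates differed in opposite directions in the 2 passages, and the difference between passages was not tested. The log2(RPKM + 1) difference of library 2 less library 1 at passage 39, less that at passage 9, was 0.47 for Sfrp4, 0.18 for Wnt2b and 0.027 for Wls. Sfrp4 was at 0.869 and 0.678 RPKM at passage 9 (68 and 45 reads, ratio 0.780 with a 95% interval of 0.523 to 1.15) and at 0.540 and 0.914 RPKM at passage 39 (35 and 71 reads, ratio 1.69 with a 95% interval of 1.11 to 2.61). Wnt2b rested on 11 to 19 reads per library, and the intervals of its ratio and of that of Wls held 1 in both passages.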

How the results depend on the processing

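The number of members at the minimum in both populations, 23, was 35 when the minimum was 0.1 RPKM and 15 when it was 5 RPKM. It stayed within 1.5 times under both scalings and with each library left out. The number that differed 2-fold between passages was 0 under all alternatives run for it, the replicate block included, in which the log2 differences of same-numbered libraries were averaged (0 members). With 2 numbers, which the labels do not tie to a shared batch, this block is only a check, and no paired test was possible because each passage had 1 population. The number that differed 2-fold between technical replicate numbers, 1, was 2 with a pseudocount of 0.1 RPKM (Wnt5a and Lgr5), 3 after rescaling to a sum of 1000000 (Wnt5a, Lgr5 and Fzd3), 0 with median-ratio scaling and 0 with a 5 RPKM minimum, which Wnt5a does not reach. Over all genes the count rose too, from 120 of 11025 to 251 of 11025 with that pseudocount and 325 of 12406 after rescaling. It was 141 of 11023 with median-ratio scaling and 83 of 8086 with the 5 RPKM minimum. The number of members was from 0 to 1 with each library left out, and 0 without either library of passage 39. The number whose libraries did not overlap by number, 22, was 36 of 57 with no filter, for which no share over all genes is given. The share over all genes was 87.7% at 1 RPKM or more and 62.9% between 0.1 and 1 RPKM, so 36 of 57 is not read as a result about the members. The counts of separate intervals stayed within 1.5 times without a filter and with one at 5 RPKM. Wnt5a remained higher in technical replicates 2 under all alternatives run for its difference. The depth limits the members under 0.1 RPKM, where a library held at most 26 reads of any gene.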
